A study of Mus musculus with 6 samples.

Results

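The proteasome is the protease of the cytosol and nucleus that breaks down ubiquitin-tagged proteins and supplies peptides for MHC class I molecules. Its genes were followed in mRNA-seq of double positive (DP) thymocytes, immature T cells that have CD4 as well as CD8 on their surface. The members were all genes whose symbol starts with *Psma*, *Psmb*, *Psmc*, *Psmd*, *Psme*, *Psmf* or *Psmg* followed by a digit, which gave 50 of the 23183 gene symbols in the files. DP thymocytes had been sorted from *Nsrp1* f/f mice (WT) and from *Nsrp1* f/f CD4Cre mice (NSrp70-cKO), all C57BL/6 at 6 weeks of age, with 3 libraries per genotype. NSrp70 is a splicing regulator of nuclear speckles encoded by *Nsrp1*. Both groups carried the floxed allele, and the controls carried no Cre, so that an effect of the CD4Cre transgene itself cannot be told apart from that of the deletion. CD4Cre uses regulatory sequence of *Cd4*, which becomes active around the DP stage. Nothing in the sources used here states whether each library came from 1 mouse or from pooled mice, so p-values measure the spread between these libraries, which may be technical.

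The barrel of the proteasome, the 20S core, is built of alpha rings that gate the entry and beta rings that hold the proteolytic sites. The beta subunits with activity are encoded by *Psmb5*, *Psmb6* and *Psmb7*. In lymphoid cells and under interferon gamma, they are replaced in newly built particles by those of the immunoproteasome, encoded by *Psmb8*, *Psmb9* and *Psmb10*, which alters the peptides that are released. The 19S regulatory particle sits on the end of the barrel. It has a base with an ATPase ring that unfolds substrates and a lid that removes the ubiquitin chain. Other caps (the activators encoded by *Psme1* to *Psme4*) open the barrel without ubiquitin, and dedicated chaperones assemble the core and the base. Cortical thymic epithelium has its own form, the thymoproteasome, with the subunit encoded by *Psmb11*.

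The authors deposited expression as FPKM (fragments per kilobase of transcript, relative to the depth of the library), a level per length that can be compared between genes. The depth behind the FPKM values came to an estimated 20.6 to 20.8 M fragments (M, mega) per library in WT and 13.2 to 20.6 M in cKO, and every member with a test except *Psme2b* had at least 164 estimated fragments in each library. The targeted gene, listed under its older symbol *Ccdc55*, had an FPKM of 20.2, 20.7 and 21.1 in WT and of 17.7, 15.8 and 15.0 in cKO (adjusted p = 0.00675, limma). Summed FPKM was 521296 to 531517 in WT and 701396 to 850548 in cKO, while size factors were within 1.00 to 1.01. The WT libraries differed from each other by 1.29 to 1.34 times counting noise and the cKO libraries by 5.41 to 11.3 times (median chi-square per gene), and cKO 2 lay closest to WT for most members that rose. *Xist*, transcribed from the inactive X chromosome, was at 69.8 to 72.0 in WT and 4.07 to 5.44 in cKO, and the Y-linked *Ddx3y* was listed at 0 in every WT library and at 26.2 to 35.0 in cKO, so genotype and sex cannot be told apart. Among the markers of DP thymocytes, *Cd4*, *Cd8a*, *Cd8b1* and *Rag1* ranged from 486 to 2603 in the 6 libraries.

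Proteasome mRNA was higher in NSrp70-cKO DP thymocytes in nearly every part of the particle. Of the 50 members, 48 reached an FPKM of 1 in 3 or more libraries and were tested with limma on log2(FPKM + 1). Between the genotypes 40 rose, 2 fell and 6 did not pass an adjusted p of 0.05. Across all 10326 genes tested, 35.8% were called higher and 29.8% lower, 65.5% in all. The median log2 fold change of the members was 0.78, and that of all genes tested was 0.04. The cKO values all exceeded the WT values for 42 members (39.1% of all genes tested) and below them for 2 members (33.4% of all genes), and the groups overlapped for 4. The FPKM of all members summed to 4291 to 4334 in WT and to 6322 to 8329 in cKO.

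**Figure D1:**
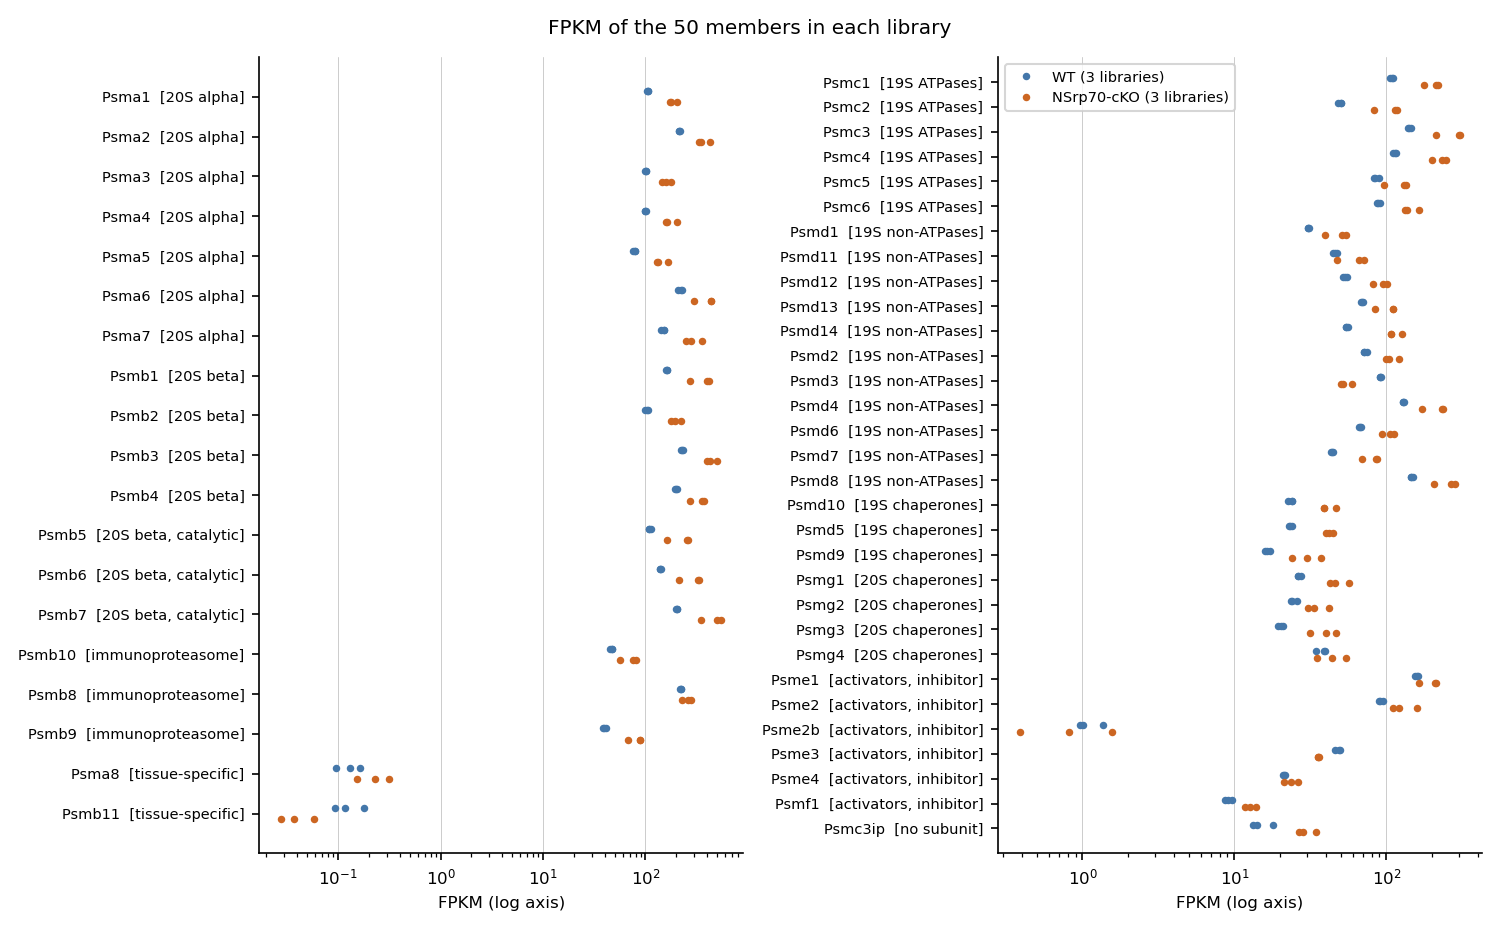
FPKM (log axis) of each of the 50 members in every library, with WT in blue and NSrp70-cKO in orange and the role of each gene in brackets. For 42 of the 48 members tested the orange points lie to the right of all blue points, and for *Psmd3* and *Psme3* they lie to the left.

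The size of the rise rested on how libraries were put on a common scale, since the FPKM totals differed. When each library was brought to the same FPKM total, the median of all genes shifted to -0.45 and that of the members to 0.23, with 24 members called higher (8.74% of all genes) and 5 lower (59.9%). Relative to the median of all genes, the members' median was then 0.68 above, against 0.74 in the fit above, 0.38 after quantile normalization and 0.45 once GC content and length were corrected for. Quantile normalization left 38 members called higher and 3 lower (33.7% and 29.4% of all genes), and the correction for GC content and length 32 and 3 (29.9% and 26.7%). Taking the 3 WT libraries as 1 sample, 14 members were called higher and 1 lower, and 7.21% and 8.73% of all genes were. Each cKO library alone showed the shift, with members at a median of 0.77, 0.59 and 0.91 (log2) above the WT mean in cKO 1, 2 and 3 and all genes at 0.03 to 0.06.

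The 14 constitutive subunits of the 20S core were all called higher (35.8% of all genes tested). The alpha ring genes *Psma1* to *Psma7* rose by 0.67 to 0.96 (log2, 7 of 7 called). *Psma2*, which had one of the highest levels, was at 213, 212 and 215 in WT and at 336, 350.3 and 429 in cKO. *Psma7* had the largest change of the ring, from 152, 141 and 150.5 to 277, 247 and 354. The groups did not overlap for any of the 7 alpha genes, and the library with the highest level was cKO 3 for each of them. *Psma6* changed by 0.81 ± 0.16 (SE), but by 0.17 (adjusted p = 0.331) after correction for GC content and length, and *Psma1* and *Psma4* also did not pass in that fit (0.13, adjusted p = 0.109, and 0.14, adjusted p = 0.0972). At the same FPKM total *Psma3* and *Psma6* were not called (0.11 and 0.25).

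The structural beta genes *Psmb1* to *Psmb4*, which line the ring without a proteolytic site, rose by 0.74 to 1.13 (4 of 4 called). *Psmb1* was at 162, 162 and 159 in WT and at 396, 271 and 416 in cKO, a log2 fold change of 1.13 ± 0.16 (SE, adjusted p = 0.00103, limma). Its lowest cKO library, cKO 2, was still far above the WT values. *Psmb3* had the highest mean level of all members in WT, at 223, 230.0 and 225, and rose to 423, 400.4 and 494. *Psmb4* was not called at the same FPKM total (0.18, adjusted p = 0.0701).

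The constitutive catalytic genes had the largest change of the role groups, with a median of 1.01 and 3 of 3 called, although the chaperones of the base had a higher median after quantile normalization (0.74 against 0.58) and after the GC content and length correction (0.77 against 0.68). *Psmb5*, which encodes the subunit with chymotrypsin-like activity (chromosome 14 of GRCm38, 54614119 to 54618022), was at 114, 107 and 109 in WT and at 262, 162 and 252 in cKO. This was a log2 fold change of 1.00 ± 0.18 (SE, adjusted p = 0.0027, limma). *Psmb6*, of the caspase-like site, was at 140.1, 139.5 and 141 in WT and at 330.0, 213 and 325 in cKO (log2 fold change 1.01 ± 0.17). *Psmb7*, of the trypsin-like site, was at 200.5, 205 and 202 in WT and at 499, 351 and 549 in cKO, which was a change of 1.17 ± 0.17 in log2 (adjusted p = 0.000947). This was the largest of any member in this fit and at the same FPKM total (0.61), but not after quantile normalization (0.64, with *Psmc3ip* the highest at 0.90) or the GC content and length correction (0.66, with *Psmc3* the highest at 0.97). In all 3 genes cKO 2 was the lowest cKO library and did not overlap with WT. *Psmb7* went from the 5th highest mean level of the members to the highest. Exons of *Psmb7* share 11.8% of their bases with *Nek6* on the opposite strand, and those of *Psmb5* share 12.1% with *Mir686* on the same strand. The strand setting of the counting is not given in the sources used here.

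The RefSeq promoters (250 bases before the annotated start, GRCm38.p6) were searched on both strands for TGACNNNGC, the core of the antioxidant response element that NRF factors bind, since these factors are known to drive proteasome genes. It was found in 5 of 45 promoters of 42 members (11.1%) and in 10.2% of all 32851 promoters. The promoters of *Psmb5* (chr14:54617996-54618245, minus strand) and *Psmb6* (chr11:70525107-70525356, plus strand) are shown whole because these genes lie among the largest changes and hold the motif close to the start, with the match in capitals.
Psmb5: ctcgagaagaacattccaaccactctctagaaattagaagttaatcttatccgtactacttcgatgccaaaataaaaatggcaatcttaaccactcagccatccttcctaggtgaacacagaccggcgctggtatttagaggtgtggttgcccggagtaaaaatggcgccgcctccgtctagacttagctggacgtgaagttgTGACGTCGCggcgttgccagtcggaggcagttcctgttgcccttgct
Psmb6: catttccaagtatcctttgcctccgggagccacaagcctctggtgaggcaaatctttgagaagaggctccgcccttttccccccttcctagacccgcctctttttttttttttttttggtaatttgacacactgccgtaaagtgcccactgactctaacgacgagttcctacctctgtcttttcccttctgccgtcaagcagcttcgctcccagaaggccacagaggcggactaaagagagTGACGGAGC
The match begins 47 bases before the start of *Psmb5* and 9 bases before that of *Psmb6*. The other matches are given with up to 10 bases to each side, as *Psmd9* (chr5:123228149-123228177) in the same direction as the gene, and *Psmc6* (chr14:45329587-45329615) and *Psmd12* (chr11:107479278-107479299) as the reverse complement.
Psmd9: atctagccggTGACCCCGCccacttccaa
Psmc6: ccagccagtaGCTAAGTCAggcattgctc
Psmd12: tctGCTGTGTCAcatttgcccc
All 5 genes with a match were called higher, and so were 35 of the members without one or without a promoter in the table, among them *Psmb1* and *Psmb7*. Of all 48 members tested, 40 were called higher, and of all genes tested 35.8%. CCGGAAG, the site of ETS factors, was in 31.1% of the members' promoters and in 6.91% of all promoters, and CCAAT, the box bound by NF-Y, in 33.3% and 33.8%. The members' promoters had a median GC content of 57.6%, against 52.4% for all promoters, which was not corrected for. The set of all promoters was not limited to genes tested here. A match of letters shows neither binding nor use.

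Of the 3 immunoproteasome genes, *Psmb9* and *Psmb10* were called higher and *Psmb8* was not (all genes, 35.8% called higher). Their median was 0.57. *Psmb8* (LMP7, chromosome 17, 34197721 to 34201454, in the MHC region) was at 221, 218 and 219.9 in WT and at 258, 229 and 275 in cKO. Its groups did not overlap, but the log2 fold change was 0.20 ± 0.09 (SE, 95% interval -0.01 to 0.42, adjusted p = 0.086, limma). Its value turned with the scaling, to -0.36 (adjusted p = 0.00149) at the same FPKM total and -0.27 (adjusted p = 0.00292) after quantile normalization. It was called higher without cKO 2 (0.29, adjusted p = 0.00177) and after correction for GC content and length (0.25, adjusted p = 0.018). *Psmb8* had the 2nd highest mean level of the members in WT and the 10th highest in cKO. Its exons share 14.7% of their bases with an annotated RNA, *Gm20496*, on the opposite strand.

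*Psmb9* (LMP2, chromosome 17, 34181987 to 34187764) lies near *Psmb8* on the chromosome, with *Tap1* between them. *Psmb9* was at 41.3, 39.5 and 38.5 in WT and at 87.7, 67.3 and 88.8 in cKO, a log2 fold change of 1.00 ± 0.12 (SE, adjusted p = 0.000477, limma). It shares 5.79% of its exon bases with *Tap1* on the opposite strand, and *Tap1* itself was at 41.1 to 43.0 in WT and at 36.8 to 42.0 in cKO. *Psmb10*, the third inducible subunit (chromosome 8, 105935735 to 105938444), was at 47.1, 45.6 and 47.6 in WT and at 75.7, 55.9 and 80.6 in cKO (log2 fold change 0.57 ± 0.14, adjusted p = 0.00897), and at the same FPKM total it was at 0.02 (adjusted p = 0.884). The level of *Psmb8* was 5.35, 5.52 and 5.71 times that of *Psmb9* in WT 1, 2 and 3 and 2.95, 3.39 and 3.10 times in cKO 1, 2 and 3.

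The balance of inducible and constitutive catalytic subunits was taken as the ratio of FPKM within a library, which a single scaling factor per library cannot change. *Psmb8* over *Psmb5* was 1.94, 2.03 and 2.02 in WT 1, 2 and 3 and 0.985, 1.41 and 1.09 in cKO 1, 2 and 3. All 3 cKO ratios lay below all WT ratios, a log2 difference of -0.80. *Psmb10* over *Psmb7* was 0.235, 0.223 and 0.236 in WT and 0.152, 0.159 and 0.147 in cKO, again without overlap, with a log2 difference of -0.60. *Psmb9* over *Psmb6* was 0.294, 0.283 and 0.274 in WT and 0.266, 0.316 and 0.273 in cKO, so that the groups overlapped and the log2 difference was 0.0022. With 3 libraries against 3, the exact two-sided permutation test cannot go below p = 0.1, which it gave for *Psmb8* over *Psmb5* and for *Psmb10* over *Psmb7* (0.15 adjusted over the 3 pairs). For *Psmb9* over *Psmb6* the exact permutation p was 1.0. The test therefore could not pass 0.05 for any pair. When GC content and length, which differ between the genes of a pair, were corrected for, the log2 differences were -0.54 for *Psmb8* over *Psmb5*, 0.23 for *Psmb9* over *Psmb6* and -0.11 for *Psmb10* over *Psmb7* (exact permutation p adjusted over the 3 pairs 0.15, 0.15 and 0.2). In that fit the groups overlapped for *Psmb10* over *Psmb7* and did not for *Psmb9* over *Psmb6*.

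**Figure D2:**
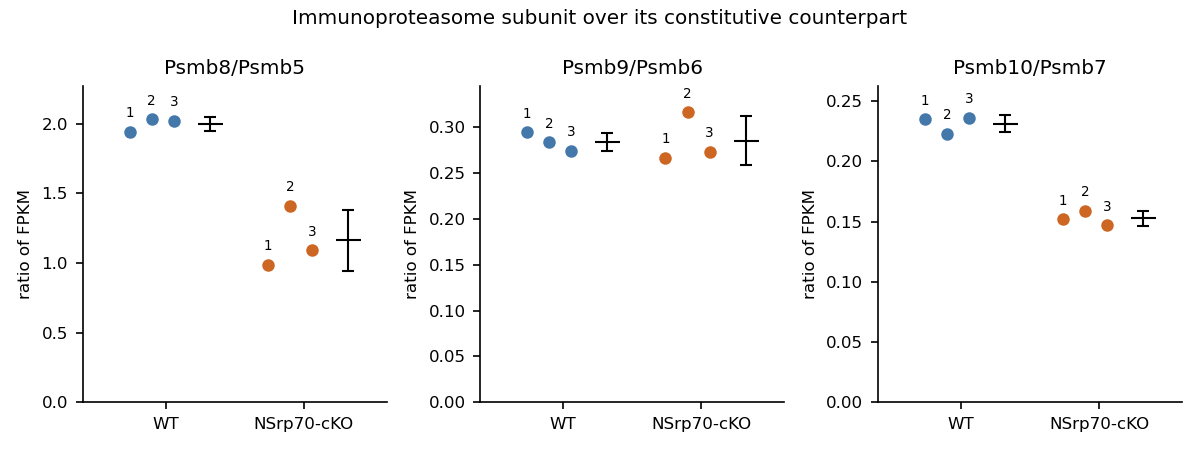
Ratio of the FPKM of each immunoproteasome gene to that of its constitutive counterpart, per library (numbered points), with the mean ± SD of each genotype at the side. *Psmb8*/*Psmb5* has a mean of 2.00 in WT and 1.16 in NSrp70-cKO, *Psmb10*/*Psmb7* of 0.231 and 0.153, and *Psmb9*/*Psmb6* of 0.284 and 0.285.

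The other tissue-specific core genes were at the floor of detection. *Psmb11* of the thymoproteasome was listed at 0.0944 to 0.178 in WT and 0.0279 to 0.0586 in cKO, and *Psma8*, the alpha subunit of germ cells, at 0.0965 to 0.162 and 0.154 to 0.311. Neither was tested, and *Psma8* rested on 3.0 to 7.9 and *Psmb11* on 1.9 to 14.8 estimated fragments per library. Of the 10 markers of thymic epithelium, *Foxn1*, *Krt5* and *Cldn3* were listed at 0 in all 6 libraries, and *Cldn4* had the highest level (11.7 to 14.3). *Epcam* was at 1.88 to 3.71, *Ly75* at 2.24 to 3.02 and *Ccl25* at up to 3.23.

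In the 19S regulatory particle, 15 of 17 members rose, 1 fell and 1 was not called (all genes, 35.8% higher and 29.8% lower). Their median was 0.70. The 6 ATPases of the base, *Psmc1* to *Psmc6*, were all called higher (0.49 to 1.04). *Psmc6* was not called at the same FPKM total (0.14, adjusted p = 0.182) or after correction for GC content and length (0.25, adjusted p = 0.0554), and *Psmc5* in neither nor after quantile normalization. *Psmc2* was at 48.2, 50.6 and 50.3 in WT and at 117, 82.7 and 113 in cKO (log2 fold change 1.04 ± 0.14, adjusted p = 0.000722). *Psmc4* followed with 115, 114 and 110.1 in WT and 234, 198 and 246 in cKO (0.99 ± 0.10). *Psmc5* had the least change (0.49 ± 0.13, adjusted p = 0.0154, and -0.070 at the same FPKM total), and its call was lost without WT 1, WT 3 or cKO 3 (adjusted p = 0.0504, 0.0526 and 0.0619). The scaffold subunits of the base, *Psmd1* and *Psmd2*, rose by 0.63 and 0.57, and *Psmd4*, a ubiquitin receptor, by 0.70. At the same FPKM total none of these 3 was called (0.082, 0.017 and 0.14, adjusted p = 0.438, 0.837 and 0.156).

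In the lid, 6 of 8 subunits rose and 1 fell (all genes, 35.8% and 29.8%). *Psmd14*, the deubiquitinase of the lid, was at 53.8, 54.4 and 56.0 in WT and at 107, 107 and 127 in cKO (log2 fold change 1.03 ± 0.09, adjusted p = 0.000166, limma). *Psmd6*, *Psmd7*, *Psmd8*, *Psmd12* and *Psmd13*, which form its frame, were called higher by 0.53 to 0.85, and the lowest of them, *Psmd13*, was at -0.026 at the same FPKM total. *Psmd6* and *Psmd8* were also not called there (0.067 and 0.20), nor was *Psmd6* after correction for GC content and length (0.15). *Psmd11* was at 44.7, 45.8 and 47.6 in WT and at 71.3, 47.2 and 66.1 in cKO, where cKO 2 lay within the WT values. It was not called (0.39 ± 0.15, adjusted p = 0.0552, and -0.16 at the same FPKM total), but was without cKO 2 (0.58, adjusted p = 0.000176).

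*Psmd3*, a lid subunit on chromosome 11 (98682554 to 98695979), was at 90.5, 91.3 and 92.1 in WT and fell to 59.6, 52.0 and 49.9 in cKO. All cKO values were far below the WT values, and cKO 2 was not apart from the other two. The log2 fold change was -0.76 ± 0.08 (SE, adjusted p = 0.000376, limma), and *Psmd3* was lower under every alternative. The change was -0.42 after correction for GC content and length (adjusted p = 0.00242, limma). It was -1.02 after quantile normalization and -1.31 at the same FPKM total. The GC content of *Psmd3* (58.3%) was the highest of the members tested. Over the median FPKM of the other 7 lid members, *Psmd3* stood at 1.68, 1.65 and 1.64 in WT and at 0.566, 0.620 and 0.455 in cKO. The same ratio for *Psmd14*, taken over 6 members, went up from 0.908, 0.899 and 0.925 to 1.07, 1.29 and 1.21. Of 9 proteasome parts without a *Psm* symbol, 6 were called higher and 2 lower (all genes, 35.8% and 29.8%). *Adrm1*, a ubiquitin receptor of the base, fell from 61.8, 62.8 and 59.5 to 45.3, 43.1 and 46.6 (-0.44 ± 0.06, adjusted p = 0.00101). *Shfm1* (Sem1 of the lid) rose from 452, 428 and 442 to 639.5, 812 and 954 (0.84 ± 0.15, adjusted p = 0.00242), which did not pass after quantile normalization, at the same FPKM total or after correction for GC content and length.

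**Figure D3:**
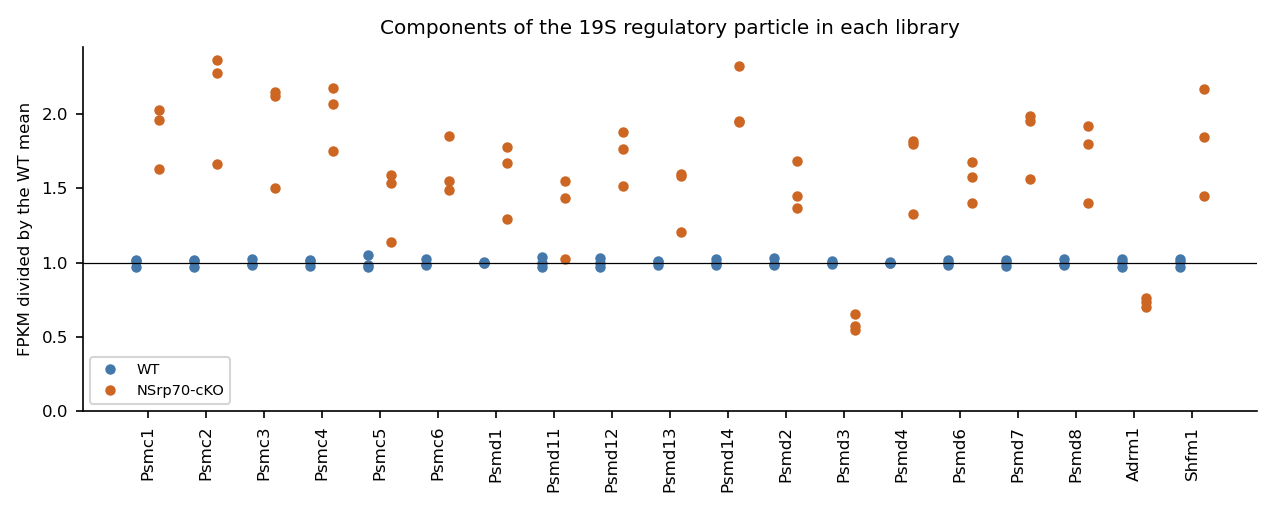
FPKM of each component of the 19S regulatory particle divided by its WT mean, per library, with WT in blue and NSrp70-cKO in orange. *Psmd3* and *Adrm1* are the components whose 3 orange points all lie below the WT points, and 1 point of *Psmd11* lies among them.

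Most assembly factors were higher in cKO. *Psmd5*, *Psmd9* and *Psmd10*, the chaperones of the base, were all called higher (35.8% of all genes tested), with log2 fold changes of 0.83, 0.82 and 0.78. *Psmd9* was not called at the same FPKM total (0.28, adjusted p = 0.0756), and *Psmd10* not after correction for GC content and length (0.16, adjusted p = 0.0596). *Psmd5* was at 22.8, 23.8 and 23.2 in WT and at 41.7, 39.9 and 44.6 in cKO. Exons of *Psmd9* share 25.5% of their bases with an annotated RNA on the opposite strand. Of the 20S chaperones, *Psmg1*, *Psmg2* and *Psmg3* were called higher (0.83, 0.50 and 0.91, with *Psmg2* at -0.039 at the same FPKM total and at 0.0061 when corrected for GC content and length), and *Psmg4* was at 34.6, 38.9 and 39.3 in WT and 35.1, 43.8 and 54.2 in cKO (0.21 ± 0.15, adjusted p = 0.245, and -0.34 at the same FPKM total). *Pomp*, which guides the closing of the beta ring, rose from 179, 191 and 192 to 298, 297 and 376 (0.78 ± 0.11, adjusted p = 0.000993). *Uchl5*, a deubiquitinase bound to the base, rose from 37.5, 37.9 and 37.8 to 78.0, 60.7 and 93.7 (1.00 ± 0.15, adjusted p = 0.00116).

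The activators and the inhibitor changed least, with 2 of 6 called higher and 1 lower (all genes, 35.8% and 29.8%). Their median was 0.22, which turned to -0.33 at the same FPKM total. In the 3 cKO libraries their median stood 0.35, 0.0041 and 0.35 above the WT mean, whereas that of the constitutive catalytic genes stood 1.25, 0.59 and 1.21 above. *Psme1* and *Psme2* encode the interferon-inducible PA28 cap that pairs with the immunoproteasome. *Psme1* was at 155, 160.3 and 160.2 in WT and at 213.5, 163 and 210.4 in cKO (0.29 ± 0.12, adjusted p = 0.0632), a value that turned to -0.27 (adjusted p = 0.0169) at the same FPKM total and to -0.18 after quantile normalization. *Psme2* was at 90.8, 95.5 and 89.6 in WT and at 122, 109.7 and 159 in cKO (0.48 ± 0.14, adjusted p = 0.018), and was not called without WT 1 or WT 3 (adjusted p = 0.0555 and 0.0576), after quantile normalization (0.11) or after correction for GC content and length (0.0068), and at the same FPKM total it was at -0.08. *Psme2b*, a near copy of *Psme2* whose reads may be shared with it, was at 0.963 to 1.36 in WT and 0.388 to 1.55 in cKO and was not called.

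*Psme3*, which encodes the nuclear PA28 gamma cap (chromosome 11, 101316213 to 101323537), fell from 49.5, 45.6 and 48.5 to 36.1, 35.5 and 35.3. The cKO values were nearly equal and all below WT, with a log2 fold change of -0.42 ± 0.06 (SE, adjusted p = 0.00119, limma). *Psme3* was lower under every alternative, though not called when WT was taken as 1 sample (adjusted p = 0.102). Its promoter (chr11:101315963-101316212, plus strand) is shown as that of a member that fell, since it holds the same ETS site (CCGGAAG) and a CCAAT box read on the opposite strand, both in capitals, as members that rose.
Psme3: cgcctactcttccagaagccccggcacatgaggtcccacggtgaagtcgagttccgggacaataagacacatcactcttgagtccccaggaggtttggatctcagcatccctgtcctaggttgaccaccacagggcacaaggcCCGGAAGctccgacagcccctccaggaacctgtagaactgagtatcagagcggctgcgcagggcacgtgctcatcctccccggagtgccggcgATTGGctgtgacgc
*Psme4*, of the PA200 cap, was at 21.0, 21.6 and 21.3 in WT and 23.5, 21.1 and 26.2 in cKO (0.14 ± 0.09, adjusted p = 0.198, and -0.40 with adjusted p = 0.00201 at the same FPKM total). *Psmf1*, the inhibitor PI31, rose from 9.68, 9.02 and 8.73 to 13.8, 11.7 and 12.6 (0.43 ± 0.08, adjusted p = 0.00374), and was at -0.08 (adjusted p = 0.455) at the same FPKM total. *Psmc3ip* is a member by its symbol and encodes a recombination factor, not a subunit. It was at 14.2, 13.2 and 17.9 in WT and at 28.4, 26.6 and 34.2 in cKO (0.94 ± 0.14, adjusted p = 0.00103).

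**Figure D4:**
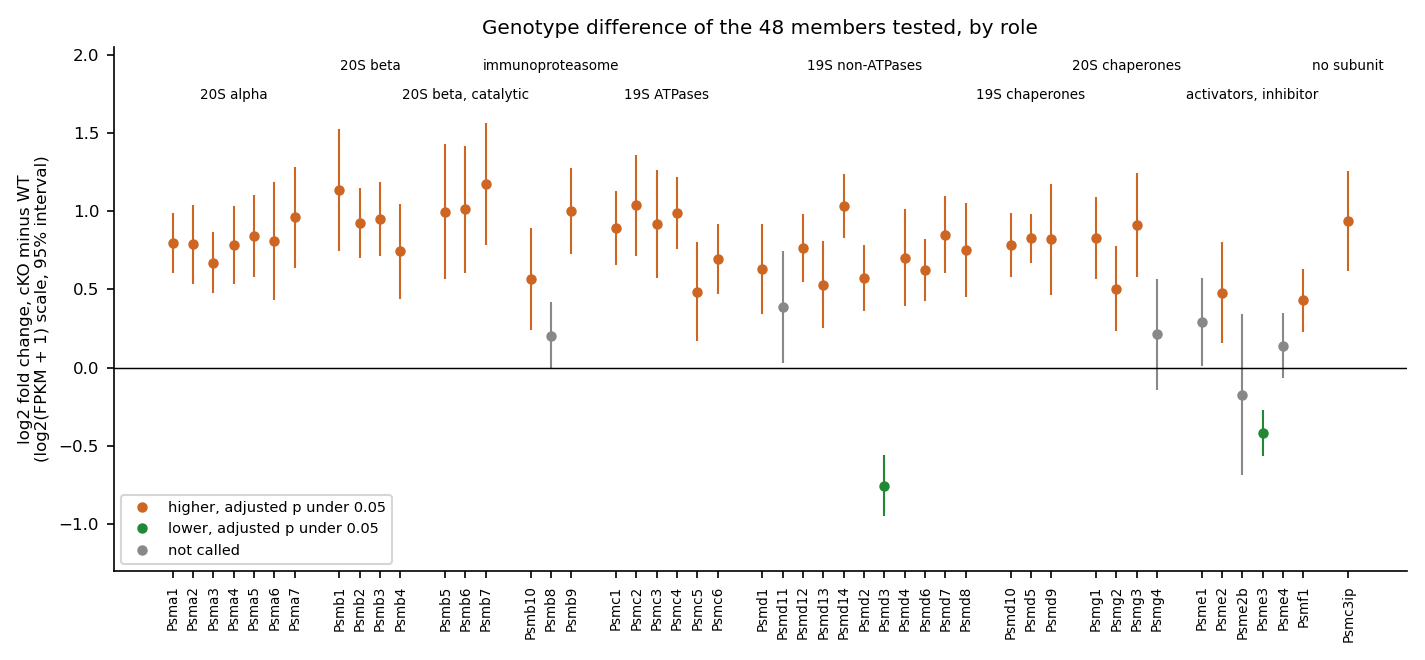
Log2 fold change (cKO minus WT, log2(FPKM + 1) scale) with its 95% interval for the 48 members tested, ordered by role. The 14 constitutive core genes and the 6 ATPases lie between 0.49 and 1.17, and *Psmd3* (-0.76) and *Psme3* (-0.42) are the members called lower.

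The rise was smallest in cKO 2. Of the 40 members called higher, cKO 2 was the lowest cKO library for 33 (82.5%), and for 59.0% of the 3693 genes called higher in all. The highest library was cKO 3 for 29 and cKO 1 for 10. Without cKO 2, 44 members were called higher and 2 lower, and of all genes 40.1% and 34.4%. Across the 48 members, the log2 fold change had a Spearman correlation of -0.28 with transcript length and of 0.0046 with GC content, and across the 10242 genes with both values of -0.30 and -0.33. These are descriptions over genes measured in the same libraries, which are not independent replicates.

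**Figure D5:**
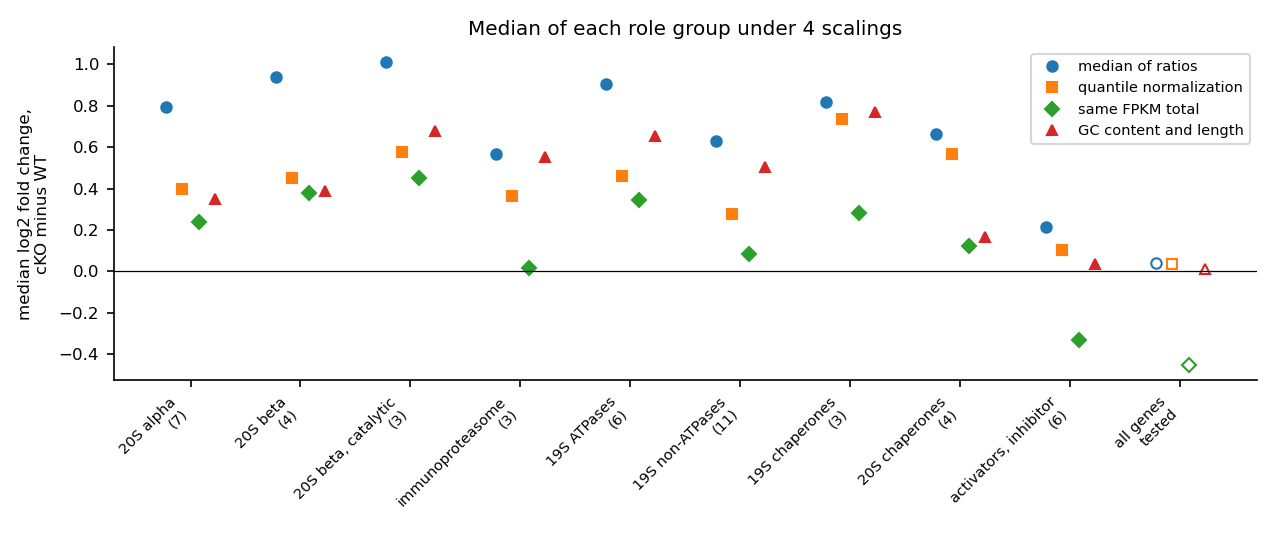
Median log2 fold change (cKO minus WT) of each role group (number of genes in brackets) and of all genes tested (open symbols) under 4 ways to scale the libraries. The constitutive catalytic genes lie above all genes under each scaling, and the activators and inhibitor fall to -0.33 at the same FPKM total, where all genes lie at -0.45.

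The regulators of proteasome genes did not move one way. Of 9 transcription factors and activating enzymes tested, 5 were called higher and 4 lower (all genes, 35.8% and 29.8%). *Nfe2l1*, which drives proteasome genes when proteolysis falls short, fell from 17.0, 15.7 and 16.1 to 11.4, 12.2 and 12.4 (-0.41 ± 0.07, adjusted p = 0.0016), and was not called after correction for GC content and length. *Nfe2l2*, of oxidative stress, rose from 17.3, 17.2 and 18.4 to 31.0, 26.6 and 33.6 (0.75 ± 0.10, adjusted p = 0.000677). *Ngly1* and *Ddi2*, which process the *Nfe2l1* product, were called higher (0.53 and 0.27), at the same FPKM total they were at -0.01 and -0.24, and *Ddi2* lost its call without any single WT library or without cKO 3. The NF-Y genes were split, with *Nfyb* and *Nfyc* called higher (0.62 and 0.51) and *Nfya* lower (-0.20).

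Among the interferon and antigen presentation genes, 3 of 13 were called higher and 4 lower (all genes, 35.8% and 29.8%), with a median of -0.066. *Nlrc5*, the transactivator of MHC class I genes and of *Psmb9*, fell from 3.45, 3.14 and 3.16 to 0.839, 1.06 and 0.757 (-1.17 ± 0.09, adjusted p = 0.000146). *Irf1*, which drives the inducible subunits, fell from 49.9, 48.6 and 48.0 to 32.7, 43.1 and 35.1 (-0.40 ± 0.10, adjusted p = 0.0104). The receptor genes went apart, with *Ifngr1* called higher (0.57) and *Ifngr2* lower (-0.65), and *Ifngr1* was at -0.0046 after quantile normalization. *Tap1* and *Tap2*, the peptide transporters, were not called (-0.07 for each). *B2m* was called higher (0.50) and turned to -0.16 after quantile normalization, -0.06 at the same FPKM total and -0.41 (adjusted p = 0.00912) after correction for GC content and length.

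Of 14 genes of ubiquitin supply, 7 were called higher and 4 lower (all genes, 35.8% and 29.8%). *Rps27a*, which encodes ubiquitin fused to a ribosomal protein, went from 1474, 1486 and 1474 to 2775, 2150.0 and 3296. It was called higher (0.87) and was at -0.06 after quantile normalization.

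Markers of cell state also differed between the genotypes, in both directions. All 14 proliferation markers were called higher (35.8% of all genes tested). They had a median of 1.06 and a summed FPKM of 1292 to 1300.0 in WT and 2580.0 to 2939 in cKO. Of 11 markers of mature single-positive thymocytes tested, 8 were called lower (29.8% of all genes tested), with a median of -1.67. *S1pr1* was at 4.11 to 4.79 in WT and 0.133 to 0.203 in cKO. The summed level of the 13 dendritic cell and macrophage markers was 26.8 to 29.1 in WT and 18.8 to 26.5 in cKO, that of the 10 thymic epithelial markers 20.4 to 22.1 and 20.3 to 22.2, that of the 5 B cell markers 22.8 to 24.2 and 26.6 to 39.4 (nearly all *Cd79b*), and that of the 8 erythroid markers 2.02 to 2.81 and 12.5 to 27.0. Of 10 markers of DP thymocytes, 6 were called higher and 3 lower (all genes, 35.8% and 29.8%), with sums of 5348 to 5430.0 and 7205 to 9365. In bulk samples fewer cells of a type and less RNA per cell cannot be told apart, and the part of these cell states in the proteasome values was not tested.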

How the data were processed

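The authors prepared directional poly(A) libraries, used fastx trimmer on the reads, TopHat for the alignment to mm10 and Cufflinks for the deposited FPKM values, 1 per symbol and library. The gene annotation and strand setting are not given in the sources used here. The study's count test was not repeated, since FPKM are not counts. Deposited FPKM were divided by median-of-ratios size factors, and log2(FPKM + 1) of the 10326 genes at 1 or more in at least 3 libraries was fitted by genotype with limma 3.58.1 (R 4.3.3, eBayes with trend), with Benjamini-Hochberg adjustment at 0.05. Tested on simulated data of 10326 genes, it found 90 of 100 genes with a 2-fold change and 99 of 100 with a 4-fold change, with 11 false calls. The simulation gave all libraries of a gene the same independent spread and changed few genes. In the data the cKO libraries differed more than the WT libraries, so these counts do not measure the error rate here. A fold change on this scale understates the change of low genes.

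Ratios within a library were compared by exact permutation. Depth came from 2612 single-transcript genes with an assumed fragment length of 200, and covers counting error only. Symbols were matched to GENCODE mouse release 21 (22112 directly, 647 by synonym, 38 to several genes and 386 to none), and promoters are those of RefSeq on GRCm38.p6, with 42 of 50 members matched. Group and replicate number came from the labels. Same-numbered WT and cKO libraries did not deviate together (correlations -0.02, 0.04 and 0.03). Every tested member was reported, and genes of other lists that passed the test, largest change first, except a few genes that were left out whatever their values. Members, lists and alternatives were chosen with earlier results of these data known. The 19S lid ratios and the order of levels were added after their values were seen. Python 3.11.15, pandas 2.3.3, numpy 2.4.6 and matplotlib 3.10.9 were used.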

Additional observations from a re-analysis of the deposited data

How the results depend on the processing

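The 48 members tested kept their direction and their side of the threshold in 735 comparisons with an alternative, lost a call in 54, gained one in 8 and turned in 15. Pseudocounts of 0.1 and 0.5, FPKM as deposited, a filter at an FPKM of 5 or more, no trend and no filter on low values changed no member's call, and without the filter *Psmb11* was also called lower. Depth limits *Psma8*, *Psmb11* and *Psme2b*.

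With the same FPKM total, 902 genes in all were called higher and 6181 lower (3693 and 3073 in the report), 24 and 5 of the members (40 and 2 in the report), and the medians of the groups were 0.24 (alpha ring), 0.38 (structural beta), 0.45 (constitutive catalytic), 0.016 (immunoproteasome), 0.35 (ATPases), 0.082 (19S non-ATPases), 0.28 (base chaperones), 0.12 (20S chaperones) and -0.33 (activators and inhibitor). Members that turned there were *Psmb8* (-0.36), *Psmc5* (-0.070), *Psmd11* (-0.16), *Psmd13* (-0.026), *Psme1* (-0.27), *Psme2* (-0.078), *Psme4* (-0.40), *Psmf1* (-0.085), *Psmg2* (-0.039) and *Psmg4* (-0.34), and of other genes *Txnl1* (-0.047), *AI314180* (-0.34), *Ngly1* (-0.012), *Nfyc* (-0.045), *Ddi2* (-0.24), *B2m* (-0.059) and *Erap1* (-0.033). This shift follows the FPKM totals, since all genes moved by one factor per library. After quantile normalization the medians were 0.40 (alpha ring), 0.45 (structural beta), 0.58 (constitutive catalytic), 0.46 (ATPases), 0.27 (19S non-ATPases) and 0.56 (20S chaperones), and *Psmb8* (-0.27), *Psme1* (-0.18), *Psme2b* (0.15), *Rps27a* (-0.061), *Ifngr1* (-0.0046) and *B2m* (-0.16) turned. The correction for GC content and length gave medians of 0.35 (alpha ring), 0.39 (structural beta), 0.65 (ATPases) and 0.17 (20S chaperones), turned *Psmg4* (-0.36), *B2m* (-0.41) and *Tapbp* (0.054), and called 32 members higher and 3 lower, where the third was *Psme2b* (-0.85, adjusted p = 0.0144). For quantile normalization and for GC content and length the cause was not tested.

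With the WT libraries as 1 sample, 744 genes were called higher and 901 lower, 14 and 1 of the members, with all log2 fold changes as before and fewer samples in the test. Leaving out 1 library gave 38 to 44 members called higher and 2 lower (3071 to 4111 and 2324 to 3526 of all genes). *Psme2b* lay between -0.22 and 0.041 with 1 library left out, turning without cKO 2. *Psmb9* over *Psmb6* turned to -0.011 with FPKM + 1, and lay between -0.075 and 0.051 with 1 library left out. The log2 difference of *Psmb8* over *Psmb5* lay between -0.95 and -0.69 then, and that of *Psmb10* over *Psmb7* between -0.63 and -0.57. Corrected for GC content and length, these differences were -0.54 and -0.11, and that of *Psmb9* over *Psmb6* was 0.23. Same-numbered libraries share only a number. With the replicate block, 41 members were called higher and 2 lower (3513 and 2954 of all genes), and *Psmd11* passed (adjusted p = 0.0385).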
